A study of Mus musculus with 6 samples.

Results

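The genes that set the activity of the sterol regulatory element binding proteins (SREBPs), move sterol between membranes and export it were followed in mouse colon epithelium lacking Bcl9 and Bcl9l. They are Srebf1, Srebf2, Scap, Insig1, Insig2, Nr1h2, Abca1 and Stard4. None of these 8 genes encodes a lipoprotein receptor, so uptake of low-density lipoprotein is not covered. All probe sets whose platform annotation gives exactly 1 gene symbol, that of a member, were taken. This gave 15 of the 45037 probe sets that are not controls, from 7 of the 8 genes. No probe set carried the symbol Nr1h2, alone or with others, so that gene has no value here. The genes were chosen by role, with the knockout against wild-type values of these arrays already known, including higher readings of sterol synthesis genes. The differences between genotypes are therefore a description and support nothing by themselves.

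Knockout samples were vil-Cre-Bcl9-/-/Bcl9l-/- (arrays 1, 2 and 3, from pools of 3, 2 and 2 mice), and wild-type samples are labelled wildtype (arrays 4, 5 and 6, pools of 3 mice each). All mice were 12 weeks old, on a 129SvEv/C57BL/6/DBA/2 mixed background, and the epithelium was shaken off with 3 mM EDTA and 0.05 mM DTT without a sort. BCL9 and BCL9L are co-activators of beta-catenin, and the villin promoter of vil-Cre is active in intestinal epithelium. Only the knockout labels name vil-Cre, so Cre and loss of the co-activators cannot be told apart, nor can alleles of the mixed background that differ between the groups. RNA was read on Affymetrix mouse genome expression arrays, and every value here is the authors' log2 expression value from robust multi-array averaging (RMA), on which a difference of 1 is a doubling.

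SREBPs are made as precursors in the membrane of the endoplasmic reticulum. When sterol is scarce, SCAP escorts them to the Golgi, where proteases release the part that enters the nucleus and activates genes of cholesterol and fatty acid synthesis. When sterol is plentiful, INSIG proteins hold SCAP in the endoplasmic reticulum, and liver X receptors (LXRs), activated by oxidised sterols, induce Abca1 and Srebf1. In mouse intestine, deletion of Scap is known to damage the mucosa.

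Control sequences just before the transcription start are shown for 4 members, because SREBP and LXR sites there are the textbook link between these genes. They are the 250 bases before a start in RefSeq, build GRCm38.p6. Promoters of 7 members were searched, and that of Stard4 is not reported here. Insig1 lies at chr5:28071162-28071411 (plus strand) and Srebf2 at chr15:82147019-82147268 (plus strand). Srebf1 is shown at chr11:60210472-60210721 (minus strand), one of its 3 listed starts, and Abca1 at chr4:53159896-53160145 (minus strand). Capitals mark matches on either strand, 5′ to 3′.
Insig1: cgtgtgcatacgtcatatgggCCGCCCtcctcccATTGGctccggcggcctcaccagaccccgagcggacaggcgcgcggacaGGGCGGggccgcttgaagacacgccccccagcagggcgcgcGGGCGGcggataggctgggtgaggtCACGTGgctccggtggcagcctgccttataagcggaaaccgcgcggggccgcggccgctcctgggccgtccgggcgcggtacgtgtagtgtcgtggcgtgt
Srebf2: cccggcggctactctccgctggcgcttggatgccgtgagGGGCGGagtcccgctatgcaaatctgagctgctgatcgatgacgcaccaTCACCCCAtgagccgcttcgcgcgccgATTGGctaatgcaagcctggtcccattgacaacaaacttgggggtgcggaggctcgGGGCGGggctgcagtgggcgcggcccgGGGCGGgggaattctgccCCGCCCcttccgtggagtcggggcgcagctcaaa
Srebf1: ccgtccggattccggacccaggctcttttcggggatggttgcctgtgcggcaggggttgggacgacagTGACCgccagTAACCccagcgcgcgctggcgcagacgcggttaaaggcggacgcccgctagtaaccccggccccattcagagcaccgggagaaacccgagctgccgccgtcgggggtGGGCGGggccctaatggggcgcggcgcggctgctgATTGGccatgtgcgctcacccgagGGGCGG
Abca1: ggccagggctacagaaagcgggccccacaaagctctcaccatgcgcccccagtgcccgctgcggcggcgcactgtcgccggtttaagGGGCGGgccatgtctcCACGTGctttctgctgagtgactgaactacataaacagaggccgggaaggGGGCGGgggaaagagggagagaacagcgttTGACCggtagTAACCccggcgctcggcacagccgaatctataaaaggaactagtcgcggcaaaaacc

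The motifs searched in both orientations were a sterol regulatory element (TCACNCCAC), a form of it shortened by the last base (TCACNCCA), the CCAAT box (CCAAT), the E-box (CACGTG) and the GC box (GGGCGG). An LXR-type direct repeat was also searched: GGTTA or GGTCA, then 5 bases, then GGTTA or GGTCA. The shortened element and the direct repeat were added after the sequences had been seen, so nothing is read from how often they matched. TCACNCCAC, which contains the shortened form, matched none of the 12 member promoters searched. Stard4 is not among these. Of all 32851 promoters 1.05% hold TCACNCCAC. The shortened form matched Srebf2 once, starting 162 bases before the start, and 3.67% of all promoters hold it. A direct repeat matched Srebf1, 182 bases before the start shown, and Abca1, 67 bases before its start. Of the Srebf1 starts listed, only the one shown held it. Over all promoters, 0.192% hold one. Insig1 held a CCAAT box at 216, an E-box at 101 and GC boxes at 229, 167 and 126 bases before its start. CCAAT boxes occur in 33.9%, E-boxes in 6.02% and GC boxes in 32.7% of all promoters. A match is a run of letters, not a shown binding site.

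Array medians lay between 5.44 and 5.58. Markers fixed for colon epithelium were bright: all 15 measured lay above the array median on every array, among them Krt19, Krt8 and Epcam. Wild type 6 stood apart, with 40.2% of the variance on the leading component and a score of 82.5, against -34.4 to 9.54 for the other arrays. Its B and plasma cell marker level (the median over the list of each gene's log2 deviation from its 6-array mean) was 2.69, against -0.65 to -0.45 in the knockouts and -0.90 and -0.34 in the other wild types. Differences of the targeted genes ran from -0.044 to 0.11 for the Bcl9 probe sets and from -0.20 to 0.22 for those of Bcl9l. The sources used here do not say whether these probes lie in the deleted parts. In such unsorted samples, fewer cells of a type and less RNA per cell cannot be told apart.

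Of the members' 15 probe sets 11 read higher and 4 lower in the knockouts. Srebf1 differed most among those that read higher, 1.55-fold, followed by 1 of the Srebf2 probe sets, Insig1, a Stard4 probe set and the bright Scap probe set. Insig2 differed by 0.11 or less in each of its probe sets, and all Abca1 probe sets read lower. The median difference, knockout minus wild type, was 0.14 over the members, beside 0.0018 over all probe sets. limma called 0 of the 15 after Benjamini-Hochberg adjustment over all probe sets, where it called 0% of the array (smallest adjusted p 0.326; the members' adjusted p ran from 0.991 to 0.998). At an unadjusted limma p under 0.05 there were 3 members higher and 0 lower, against 2.29% and 1.85% of all probe sets. Groups did not overlap for 5 members higher and 0 lower, against 4.93% and 4.76% of all probe sets. Because the members were chosen with this comparison known, nothing is read from these counts.

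**Figure D1:**
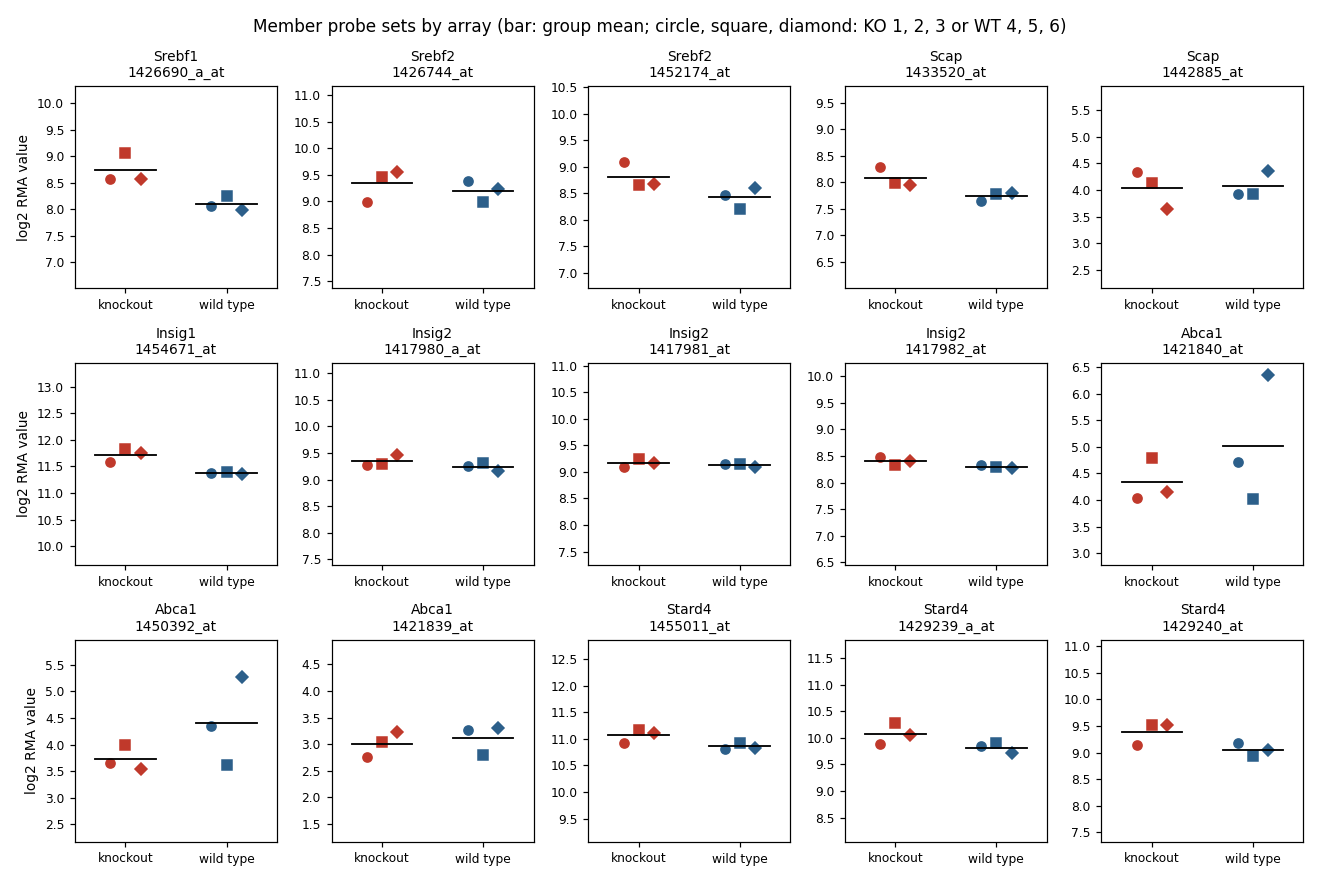
Log2 RMA value (y axis, the same span in every panel) of the 15 member probe sets by genotype (x axis), 1 point per array and a bar at the group mean. Srebf1, Insig1, Scap 1433520_at, Srebf2 1452174_at and, narrowly, Insig2 1417982_at show knockout points above all wild-type points. The highest points of the Abca1 probe sets are wild type 6 (6.35, 5.27 and 3.31).

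Srebf1 encodes the SREBP that mainly drives fatty acid synthesis genes. Its probe set 1426690_a_at read 8.56, 9.06 and 8.57 in knockouts 1, 2 and 3, against 8.05, 8.26 and 7.99 in wild types 4, 5 and 6. All knockouts lay above all wild types, by a gap of 0.30, and knockout 2 was highest. Knockout arrays averaged 8.73 ± 0.28, against 8.10 ± 0.14 for wild-type arrays (SD, n = 3 each). Their difference was 0.63 (SE 0.17, 95% interval 0.22 to 1.04). Leaving out 1 array at a time gave 0.47 (without knockout 2) to 0.72 (without knockout 1). This 1 probe set does not say which of the gene's alternative starts the transcripts came from.

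Srebf2 encodes the SREBP that mainly drives sterol synthesis genes. The brighter probe set, 1426744_at, read 8.99, 9.47 and 9.56 in the knockouts, against 9.38, 8.98 and 9.23 in wild type. The groups overlapped, with knockout 1 next to the lowest wild type, and the difference was 0.14 (SE 0.19, interval -0.31 to 0.60). Leaving out single arrays moved it between 0.033 (without knockout 3) and 0.32 (without knockout 1). The other probe set, 1452174_at, read 9.09, 8.65 and 8.67 in the knockouts, against 8.47, 8.21 and 8.61 in wild type. Here knockout 1 was the highest array instead, and the groups were separated by only 0.042, with a difference of 0.38 (SE 0.17, interval -0.039 to 0.79). Without knockout 1 it was 0.23. The array profiles of the Srebf2 probe sets differed by a root-mean-square of 0.35, about as much as the larger difference between genotypes, so they do not describe 1 pattern.

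Scap encodes the escort protein. Probe set 1433520_at read 8.28, 7.99 and 7.96 in the knockouts, against 7.64, 7.79 and 7.80 in wild type. The groups did not overlap, knockout 1 was highest, and the difference was 0.33 (SE 0.13, interval 0.016 to 0.65), 1.26-fold. It ranged from 0.23 (without knockout 1) to 0.39 with 1 array left out. The other Scap probe set, 1442885_at, read 4.34, 4.13 and 3.63 in the knockouts, against 3.92, 3.93 and 4.37 in wild type, below the median on all 6 arrays. Its groups overlapped by 0.42, with a difference of -0.040 (SE 0.22) that was 0.16 without knockout 3, and no detection call shows it to be above background.

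Insig1 encodes the sterol-sensitive retention protein and is itself a known SREBP target. Its probe set 1454671_at read 11.57, 11.82 and 11.76 in the knockouts, against 11.37, 11.40 and 11.36 in wild type. The SD was 0.13 among the knockouts, against 0.021 among the wild types, and the lowest knockout lay 0.18 above the highest wild type. The difference was 0.34 (SE 0.12, interval 0.071 to 0.62), 1.27-fold, and stayed between 0.29 and 0.42 with any 1 array left out.

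Insig2 encodes the related retention protein, which in mouse liver is controlled differently from Insig1. Probe set 1417980_a_at read 9.28, 9.29 and 9.46 in the knockouts, against 9.26, 9.32 and 9.15 in wild type. Probe set 1417981_at read 9.10, 9.24 and 9.16 in the knockouts, against 9.15, 9.14 and 9.10 in wild type. Both overlapped between genotypes. Probe set 1417982_at read 8.48, 8.33 and 8.40 in the knockouts, against 8.33, 8.29 and 8.27 in wild type, a separation of 0.0054. The differences were 0.10 (interval -0.17 to 0.38), 0.036 (-0.22 to 0.29) and 0.11 (-0.14 to 0.36) in that order. Side by side with these, Insig1 differed by 0.34; the intervals of the Insig1 and Insig2 differences overlapped, and the difference between the genes was not tested. The array profiles of the Insig2 probe sets differed by root-mean-squares of 0.087 to 0.094. That is not small beside their spans over the 6 arrays of 0.31, 0.15 and 0.21 in the same order. Knockout 1 was the lowest array in 1417981_at and the highest in 1417982_at, so they do not describe 1 pattern.

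**Figure D2:**
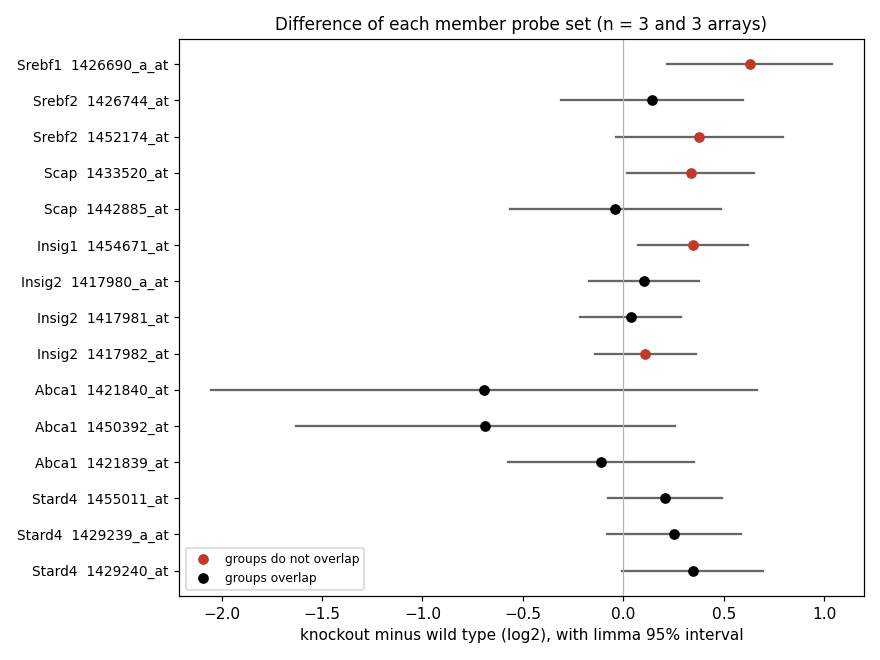
Knockout minus wild type (x axis, log2) of each member probe set (y axis), with limma's 95% interval from 3 and 3 arrays; red points mark probe sets whose groups do not overlap. Srebf1 lies highest at 0.63, the Insig2 points lie between 0.036 and 0.11, and 2 Abca1 probe sets lie at -0.70 and -0.69 with the widest intervals.

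Stard4 encodes a soluble protein that carries cholesterol between membranes, and the gene is a known SREBP target. The brightest probe set, 1455011_at, read 10.92, 11.17 and 11.11 in the knockouts, against 10.82, 10.92 and 10.83 in wild type. Probe set 1429239_a_at read 9.88, 10.28 and 10.05 in the knockouts, against 9.84, 9.90 and 9.71 in wild type. Probe set 1429240_at read 9.15, 9.52 and 9.51 in the knockouts, against 9.17, 8.93 and 9.04 in wild type. In each of them knockouts 2 and 3 lay above all wild types, while knockout 1 lay just below the highest wild type, by 0.0083 to 0.027. The differences were 0.21 (SE 0.12), 0.25 (SE 0.14) and 0.34 (SE 0.15), and without knockout 1 they were 0.28, 0.35 and 0.47. Without knockout 2 they were 0.15, 0.15 and 0.28.

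Knockout 1, the only knockout pool of 3 mice, had lower values than the other knockouts for Insig1 and all Stard4 probe sets and higher ones for Scap 1433520_at and Srebf2 1452174_at. A fit with the number of mice as a covariate in effect sets knockout 1 alone against wild type. In it Srebf1 differed by 0.46, Insig1 by 0.20, the Stard4 probe sets by 0.058 to 0.098, Scap 1433520_at by 0.54, and the Srebf2 probe sets by -0.21 and 0.67. Pool size and the identity of that pool cannot be told apart.

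**Figure D3:**
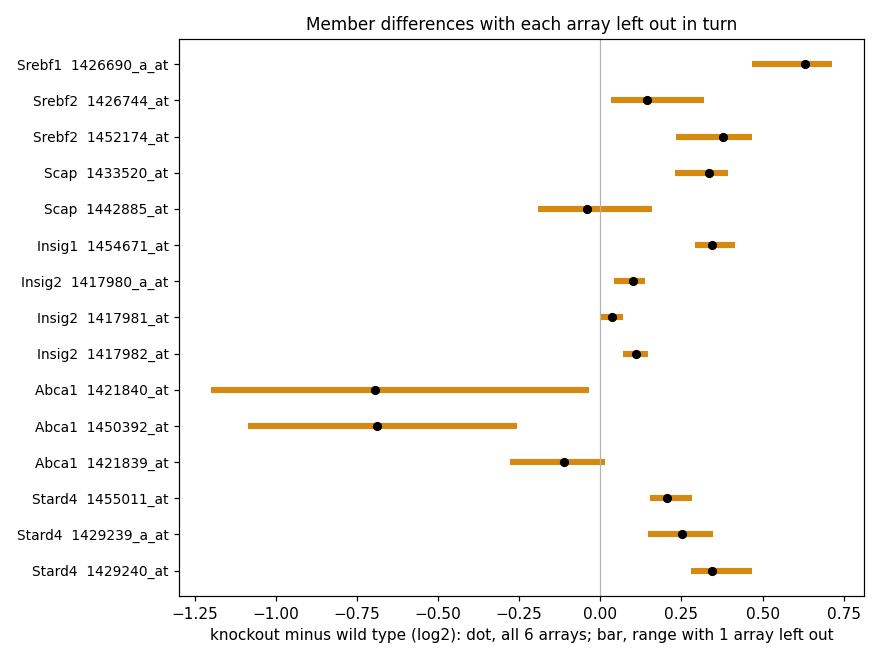
Knockout minus wild type (x axis, log2) of each member probe set (y axis): dots use all 6 arrays, and bars span the values with 1 array left out at a time. The Srebf1 bar runs from 0.47 to 0.72 and that of Insig1 from 0.29 to 0.42, while that of Abca1 1421840_at runs from -1.20 to -0.035.

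Abca1 encodes the membrane transporter that loads cholesterol onto apolipoproteins, and it is abundant in macrophages. Probe set 1421840_at read 4.03, 4.80 and 4.16 in the knockouts, against 4.72, 4.01 and 6.35 in wild type. Probe set 1450392_at read 3.65, 3.99 and 3.54 in the knockouts, against 4.35, 3.62 and 5.27 in wild type. In both, wild type 6 was highest and wild type 5 lay within or below the knockouts. The dimmest, 1421839_at, read 2.75, 3.04 and 3.23 in the knockouts, against 3.26, 2.79 and 3.31 in wild type. All these readings lay below the array median, with the single exception of wild type 6 in 1421840_at, and no detection call was used. The differences were -0.70 (SE 0.57, interval -2.05 to 0.66), -0.69 (SE 0.40, interval -1.63 to 0.25) and -0.11 (SE 0.19).

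Without wild type 6 the Abca1 differences were -0.035, -0.26 and -0.019, and with the B and plasma cell level as a covariate they were -0.050, -0.26 and -0.0045. As that level was 2.69 in wild type 6 and -0.90 to -0.34 elsewhere, the covariate fit largely repeats leaving out wild type 6. That array also had the highest level of the marker lists of B and plasma cells, T cells, macrophages, fibroblasts and smooth muscle, but not of endothelium, where wild type 5 was highest (0.15, against 0.079 in wild type 6). By summed linear signal, the highest array was wild type 4 for smooth muscle and knockout 1 for endothelium. Its macrophage level was 0.58, against -0.18 to 0.12 in the knockouts and -0.47 and -0.19 in the other wild types. The summed linear signal of the 10 macrophage markers ran from 1379 to 2382 over the knockouts, against 1038 to 3720 over the wild types; 3 of the 10 were below the median on every array. For the 9 measured B and plasma cell markers knockout sums were 271 to 625, against wild-type sums of 264 to 4104. For the 8 fibroblast markers knockout sums were 457 to 757, against wild-type sums of 722 to 1824, with 3 of them below the median throughout. The part of these cells in the Abca1 values was not tested.

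**Figure D4:**
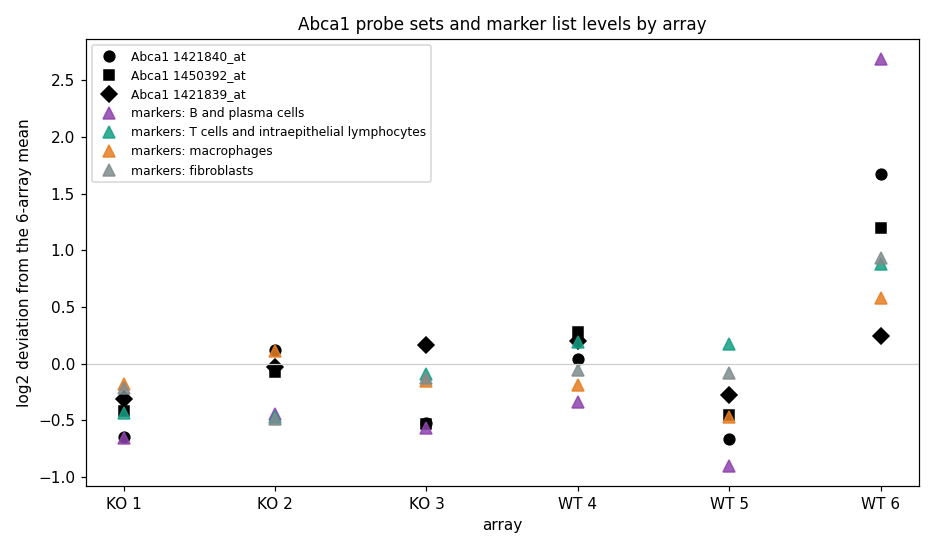
Log2 deviation from the 6-array mean (y axis) on each array (x axis) for the 3 Abca1 probe sets (black) and for the median of 4 marker lists (coloured triangles). Wild type 6 has the highest point of every series, with 2.69 for B and plasma cells and 0.58 for macrophages.

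Without wild type 6, the bright members that read higher in the knockouts still did: Srebf1 differed by 0.57, Insig1 by 0.34, Scap 1433520_at by 0.36, Srebf2 1452174_at by 0.47 and the Stard4 probe sets by 0.19, 0.20 and 0.34. The levels of 2 marker lists of other cell types were lower on every knockout array than on every wild-type array, although limma called 0 of their genes after adjustment over all genes. Of the T cell and intraepithelial lymphocyte markers, all 7 measured read lower in the knockouts, 4 of them at an unadjusted p under 0.05 (2.02% of all genes), and their level was -0.47 to -0.087 there, against 0.18 to 0.88 in wild type. Their summed linear signal lay at 326 to 438 for the knockouts, against 494 to 791 for the wild types, and 1 of the 7 was below the median on every array. Of the fibroblast markers 7 of 8 read lower, 2 at an unadjusted p under 0.05, with a level of -0.49 to -0.13 in the knockouts, against -0.082 to 0.93 in wild type, while their summed signals overlapped. The part of these cells in the members' values was not tested.

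Other genes of the pathway were described with 1 probe set each, the one with the highest mean, over 18193 genes. limma called 0 genes in either direction after adjustment over all genes, 0% of those tested (smallest adjusted p 0.291), so no gene of any list below passed. At an unadjusted p under 0.05, 2.69% of all genes read higher and 2.02% lower in the knockouts, and 5.49% read higher without overlap. The median difference of all genes was 0.0096.

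Sterol synthesis enzymes, the main targets of Srebf2, had a median difference of 0.22. All 17 measured of 20 listed read higher in the knockouts, 7 at an unadjusted p under 0.05 and 8 without overlap. Their level was 0.061, 0.22 and 0.14 in the knockouts, against -0.17, -0.24 and -0.061 in wild type. Of the 3 with the highest means, Hmgcs1, which makes the precursor of mevalonate, differed by 0.11 (SE 0.12), the isomerase Idi1 by 0.22 (SE 0.10) and Dhcr7, which makes cholesterol in the last step of one branch, by 0.20 (SE 0.13). That these genes read higher was known when the members were chosen.

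Fatty acid synthesis genes, the main targets of Srebf1, had a median difference of 0.31. Of 17 measured 14 read higher and 3 lower, with 5 higher and 0 lower at an unadjusted p under 0.05 and 7 higher without overlap. Their level was 0.084, 0.18 and 0.15 in the knockouts, against -0.13, -0.28 and -0.035 in wild type. The desaturase Scd2 differed by 0.20 (SE 0.17), Acly, which makes cytosolic acetyl-CoA from citrate, by 0.31 (SE 0.13), and Acss2, which makes it from acetate, by 0.31 (SE 0.11). Both lists had every knockout above every wild type in level, and both differed most between knockout 2 and wild type 5.

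Genes of SREBP transport, cleavage and degradation had a median of 0.096, with 11 of 15 measured higher, 0 in either direction at an unadjusted p under 0.05, and 4 higher without overlap. The coat GTPases Sar1a and Sar1b differed by 0.096 (SE 0.097) and -0.13 (SE 0.12), and the coat subunit Sec23a by -0.13 (SE 0.12). Their level overlapped between genotypes, at -0.012 to 0.058 for knockout arrays, against -0.084 to 0.024 for wild-type arrays.

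LXR partners and targets had a median of 0.081, with 6 of 10 measured higher, 3 higher and 0 lower at an unadjusted p under 0.05, and 2 higher without overlap. Smpdl3a, a phosphodiesterase and LXR target, differed by 0.014 (SE 0.10), the co-activator Ncoa1 by 0.35 (SE 0.13) and the LXR partner Rxra by -0.021 (SE 0.12). Sterol trafficking and storage genes had a median of 0.065, with 11 of 17 measured higher, 0 in either direction at an unadjusted p under 0.05 and 1 higher without overlap. Npc2, which hands lysosomal cholesterol on, differed by 0.11 (SE 0.13), and the sterol-binding proteins Osbpl2 and Osbp by 0.13 (SE 0.11) and 0.063 (SE 0.11).

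**Figure D5:**
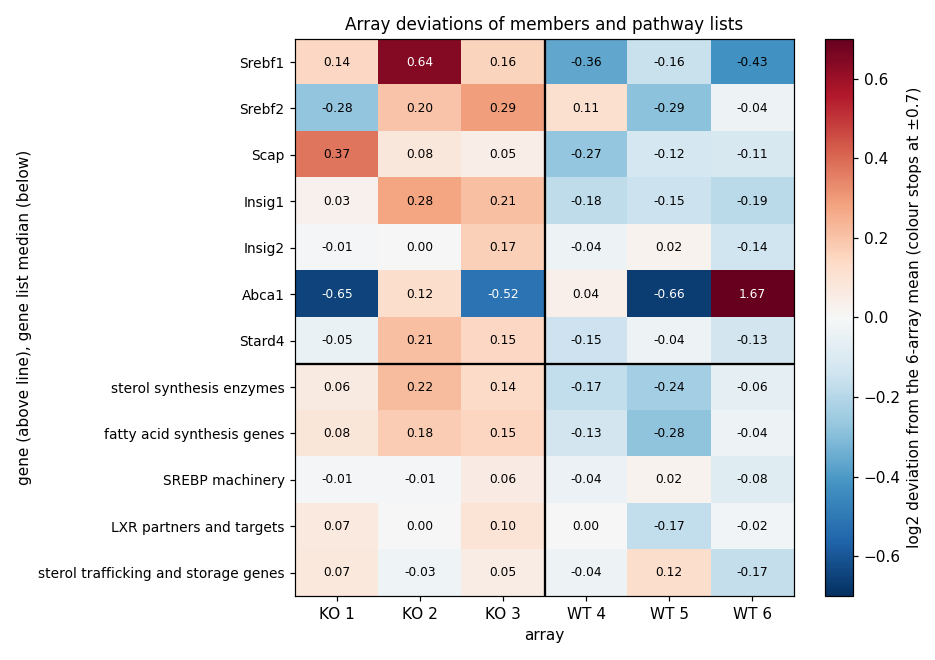
Log2 deviation from the 6-array mean (colour and printed value) on each array (x axis) for the brightest probe set of each member gene (above the line) and the median of each pathway list (below it). Srebf1, Scap, Insig1 and the lists of sterol and fatty acid synthesis are above 0 in all knockouts and below 0 in all wild types. Abca1 is set by wild type 6 (1.67).

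Genes with the most similar profile over the 6 arrays were looked up for members whose brightest probe set spanned 0.5 or more, by the root-mean-square difference of the array deviations, among 18192 other genes. Insig1, Insig2 and Stard4 spanned 0.47, 0.31 and 0.36 and were left out. Closest to Srebf1 were Apob (0.075), Tmem120b (0.085) and Lonrf1 (0.10). Scap was closest to Man2c1os (0.029), Otud3 (0.039) and Bag3 (0.053), and Srebf2 to Ly75 (0.053), Etl4 (0.054) and Tmc7 (0.061). Closest to Abca1 were Fli1 (0.16), Lef1 (0.21) and Spn (0.21). Its span was 2.33, against 1.07 for Srebf1, 0.64 for Scap and 0.58 for Srebf2. These distances were not scaled to the span, so they do not rank closeness across members. Fli1 and Spn are known for their expression in blood cells. The likeness rests on 6 arrays and is a description only.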

How the data were processed

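Values were deposited by the authors as log2 expression values of 45101 probe sets on 6 arrays, computed by RMA (per the submitters' processing notes, version not given). Per the labels' protocols, the NuGEN WT-Ovation pico kit amplified 30 ng of pooled RNA. That they are on a log2 scale follows from their range (1.78 to 14.4). Scanner files, detection calls and scan dates were not used here. Without depth, the number of arrays, 3 per group, limits the precision, and p-values measure the spread between pools.

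Of the probe sets, 64 controls were left out; 34958 had 1 symbol, 932 several and 9211 none in the platform annotation, and 34754 matched RefSeq gene numbers, with 0 symbols updated. Each probe set was tested alone, two-sided and without covariates, by lmFit and eBayes of limma 3.58.1 under R 4.3.3, with a Benjamini-Hochberg threshold of 0.05. Lists used the probe set with the highest mean of each gene, with no filter on low values. In 20 simulations the fit recovered 25.45% of 2-fold and 83.7% of 4-fold changes, and 4.95% of calls were false. Every member difference was smaller than 2-fold, so the lack of calls says little about them.

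The rule for names was every member probe set, the 3 genes of each pathway list with the highest means, and the 3 nearest profiles of members spanning 0.5 or more. Members, lists and rules were chosen with earlier results of these data known. The 15 alternatives covered normalization, dim probe sets, the variance model, array weights, covariates, the unit tested, probe set type and each array left out.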

Additional observations from a re-analysis of the deposited data

How the results depend on the processing

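No paired analysis was possible because the knockout and wild-type arrays share no replicate number. limma called 0 member probe sets and 0 pathway list genes under each of the 15 alternatives that applied to it. Over all probe sets it called 0, except for 3 without wild type 6 and 3 with the B and plasma cell level as a covariate, the same probe sets of Lrg1, Rgcc and Pla2g2a, which are outside the naming rule; with 1 array left out the count ran from 0 to 3. Of 198 recomputed member differences, 186 moved by less than the spread between replicates and 9 changed sign. Some of the 186 could not move, because the fit left the group means as they were. These were 11 values without dim probe sets, 15 with another variance model and 15 without certain probe set types. Srebf1 and Insig1, with 1 probe set each, also could not move when probe sets were averaged. Such values say nothing about stability. With the number of mice as a covariate 9 of 15 moved by more than the spread between replicates. In that fit 3 changed sign: Srebf2 1426744_at (-0.21), Scap 1442885_at (0.27) and Insig2 1417981_at (-0.034). With cyclic loess 2 moved further, both of Insig2 (-0.027 for 1417981_at and 0.037 for 1417982_at). Averaging the probe sets of each gene gave 0.15 for Scap, against 0.33 for its bright probe set. With the B and plasma cell level as a covariate, a fit that largely repeats leaving out wild type 6, 1 changed sign, Scap 1442885_at (0.092). The cause of these shifts was not tested. Without single arrays, sign changes were limited to Scap 1442885_at (0.16 without knockout 3 and 0.11 without wild type 6), Insig2 1417981_at (-0.0018 without knockout 2) and Abca1 1421839_at (0.015 without knockout 1). Signal near background limits the Abca1 probe sets and Scap 1442885_at.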

Other observations

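Some list genes outside the naming rule, chosen after their values were seen, are given as values; none passed limma's test over all genes. Lpcat3, which puts polyunsaturated chains into phospholipids and is a known LXR target, averaged 8.40 over the knockouts, against 7.84 over the wild types, which is 0.56 higher (SE 0.11, limma adjusted p = 0.953). The sterol exporter Abcg5 differed by 0.47 (SE 0.19), and its partner Abcg8 by 0.15 (SE 0.18). Mylip, an LXR-induced ubiquitin ligase, differed by -0.51 (SE 0.22), and Nr1h3, which encodes the other LXR, by 0.19 (SE 0.20). Of the other measured LXR targets on the list, Smpdl3a differed by 0.014 (SE 0.10) and Abcg1 by -0.32 (SE 0.48). Readings thus went both ways, and no direction of LXR targets as a group is read from these picked genes.

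Among fatty acid synthesis genes, the elongase Elovl6 averaged 8.52 over the knockouts, against 7.97 over the wild types, which is 0.55 higher (SE 0.20). Aacs, which activates acetoacetate in the cytosol, differed by 0.63 (SE 0.21), Me1 by 0.75 (SE 0.52) and Scd1 by 0.70 (SE 0.42). Fads1 (-0.13), Thrsp (-0.15) and Pnpla3 (-0.16) read lower in the knockouts. In sterol synthesis, Mvd and Lss differed by 0.51 each (SE 0.11 and 0.18), while Mvk differed by 0.0055 (SE 0.13).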
